A study of Mus musculus with 2 samples.

Results

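The genes described here are 10 enzymes of the intestinal brush border and their alkaline phosphatase relatives: the phosphatases Alpi, Akp3 and Alpl, the glycosidases Sis and Treh, and the peptidases Anpep, Dpp4, Enpep, Mme and Dpep1. They were found by name, as every probe set whose platform annotation gives a single gene, and that gene belongs to the 10. All 10 genes were found, on 11 probe sets of 41345, with 2 probe sets for Alpl, and no probe set naming several genes held any of them. Whole-transcript arrays were hybridised with colon RNA of male ICR mice, an outbred stock, at 7 weeks of age. The psyllium group ate a diet holding 10% psyllium for 5 days (psyllium is a gel-forming fibre from seed husks), and the control group ate the diet without it. Each diet has 1 array, so every difference is between 2 arrays, with no replicate check, no error and no p-value. How many mice gave RNA to an array, which stretch of colon was taken and whether muscle was left on it are not given in the sources used here. The comparison asks how the colon's transcripts differ after a short time on the fibre.

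The brush border is the carpet of microvilli on the luminal face of absorptive cells, and its hydrolases sit on the outer side of that membrane with their catalytic domains in the lumen. Glycosidases and peptidases there finish the digestion of sugars and peptides into molecules that transporters can take up. Alkaline phosphatases remove phosphate groups from nucleotides and from bacterial lipopolysaccharide, and the intestinal form is known as a mucosal defence enzyme. Many of these proteins are classed as small-intestinal enzymes, and several peptidases are also made by stromal, vascular and immune cells.

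The promoters of 4 members are shown because these genes mark the extremes of the data: Alpi and Akp3 had the lowest differences, Alpl was the only member with a positive one, and Sis was nearly equal on both arrays. Each line gives the 250 bases before the annotated start, 5′ to 3′, from RefSeq (GRCm38.p6). Capitals mark matches, on either strand, to the letters GTTAAT (the shorter HNF1 motif), TTTATNG (a CDX site), CAAAGTCCA (an HNF4 site) or its shorter core CAAAGTC, which lies within it and was added after the sequences had been read.
Alpi, chr1:87101607-87101856, minus strand: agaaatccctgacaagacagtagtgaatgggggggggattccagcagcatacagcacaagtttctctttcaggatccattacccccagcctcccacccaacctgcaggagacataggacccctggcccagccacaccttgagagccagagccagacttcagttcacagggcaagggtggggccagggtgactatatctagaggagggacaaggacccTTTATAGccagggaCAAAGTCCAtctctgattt
Akp3, chr1:87124704-87124953, plus strand: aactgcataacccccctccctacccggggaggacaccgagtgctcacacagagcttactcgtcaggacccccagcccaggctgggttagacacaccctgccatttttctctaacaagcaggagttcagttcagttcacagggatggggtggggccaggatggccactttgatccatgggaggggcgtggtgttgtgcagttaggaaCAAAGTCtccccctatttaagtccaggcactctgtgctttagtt
Alpl, the farther upstream of its 2 listed starts, chr4:137796385-137796634, minus strand: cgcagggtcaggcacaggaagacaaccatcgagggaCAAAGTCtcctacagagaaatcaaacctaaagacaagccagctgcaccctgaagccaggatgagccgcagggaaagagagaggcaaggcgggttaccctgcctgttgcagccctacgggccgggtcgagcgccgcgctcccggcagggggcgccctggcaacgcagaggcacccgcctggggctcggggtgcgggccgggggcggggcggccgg
Sis, chr3:72967864-72968113, minus strand: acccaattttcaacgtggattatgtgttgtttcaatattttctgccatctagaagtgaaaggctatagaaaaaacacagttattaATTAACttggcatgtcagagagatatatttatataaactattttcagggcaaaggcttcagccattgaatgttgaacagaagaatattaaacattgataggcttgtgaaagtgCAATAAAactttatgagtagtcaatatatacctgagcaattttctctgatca

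HNF1, HNF4 and CDX proteins are transcription factors of the intestinal epithelium, and Sis is a classic CDX and HNF1 target. The window of Sis held 1 HNF1 match and 1 CDX match, and that of Alpi held the full HNF4 letters from 19 to 11 bases before the start. Akp3 and the upstream start of Alpl held the core alone, at 44 to 38 and 214 to 208 bases before the start. The core was also found before Treh. Which start of Alpl is used in the colon was not measured, and a link between these letters and the differences was not tested. Among all 13 promoter windows of the 10 genes, the full HNF4 letters were found in 2 (Alpi and Treh), against 0.384% of all 32851 mouse windows of this length. The CDX letters were in 4 of 13, against 9.81% of all windows, and the HNF1 letters in 2 of 13, against 6.43%. The core was in 4 of 13, against 3.84%. It was added after these sequences had been read, and the windows of Alpi and Treh are counted for it again. Its share is therefore no separate evidence. The CDX match of Alpi, TTTATAG, lies 33 to 27 bases before the start. The same letters lie 192 to 186 bases before the other start of Alpl, whose window, not shown, also held an HNF1 match. A match of letters is a description of the sequence and not a measured binding site.

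Alpi and Akp3 are neighbours on chromosome 1 in the RefSeq gene table, read in opposite directions. Their upstream windows were identical at 52.5% of 280 aligned columns, with a longest shared run of 14 bases. The other pairs among the Alpi, Akp3, Alpl and Sis windows ranged from 38.1% to 46.8%, so the Alpi and Akp3 pair had the highest value of those aligned. Because their coding sequences are close relatives too, probes of the 2 genes may bind each other's transcripts, and their values may not be independent.

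Both intestinal alkaline phosphatases were lower on the psyllium array, and the tissue-nonspecific form was higher. Alpi, the gut-restricted enzyme, had a normalised intensity of 498 on the psyllium array and 1635 on the control array, a 3.28-fold lower value (log2 difference -1.71). Akp3, the duodenal-type intestinal phosphatase of the mouse, had 53.9 on the psyllium array and 151 on the control array, 2.81-fold lower (-1.49). Of the 11090 genes bright enough to be counted, 10 had a difference as low as that of Alpi or lower, Alpi included, and 18 had one as low as that of Akp3 or lower. That filter kept a gene whose higher value reached 69.5, the median of the higher values over 22180 genes. The psyllium value of Akp3 lay below 69.5, so the size of its fold is uncertain. Alppl2, the next phosphatase gene on the other side of Alpi, was dim on both arrays, at 19.5 on the psyllium array and 21.4 on the control array.

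Alpl, the tissue-nonspecific alkaline phosphatase of bone, liver and kidney and, in humans, of neutrophils, went the other way. Its brighter probe set had 98.9 on the psyllium array and 51.7 on the control array, 1.91-fold higher (0.94). Of the genes past the filter 145 (1.31%) were as high or higher. The control value lay below 69.5, and the other Alpl probe set, with 55.3 on the psyllium array and 43.1 on the control array, was below it on both and 1.28-fold higher (0.36). The 2 probe sets had the same direction and differed in size, and the mean over them was 0.65.

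**Figure D1:**
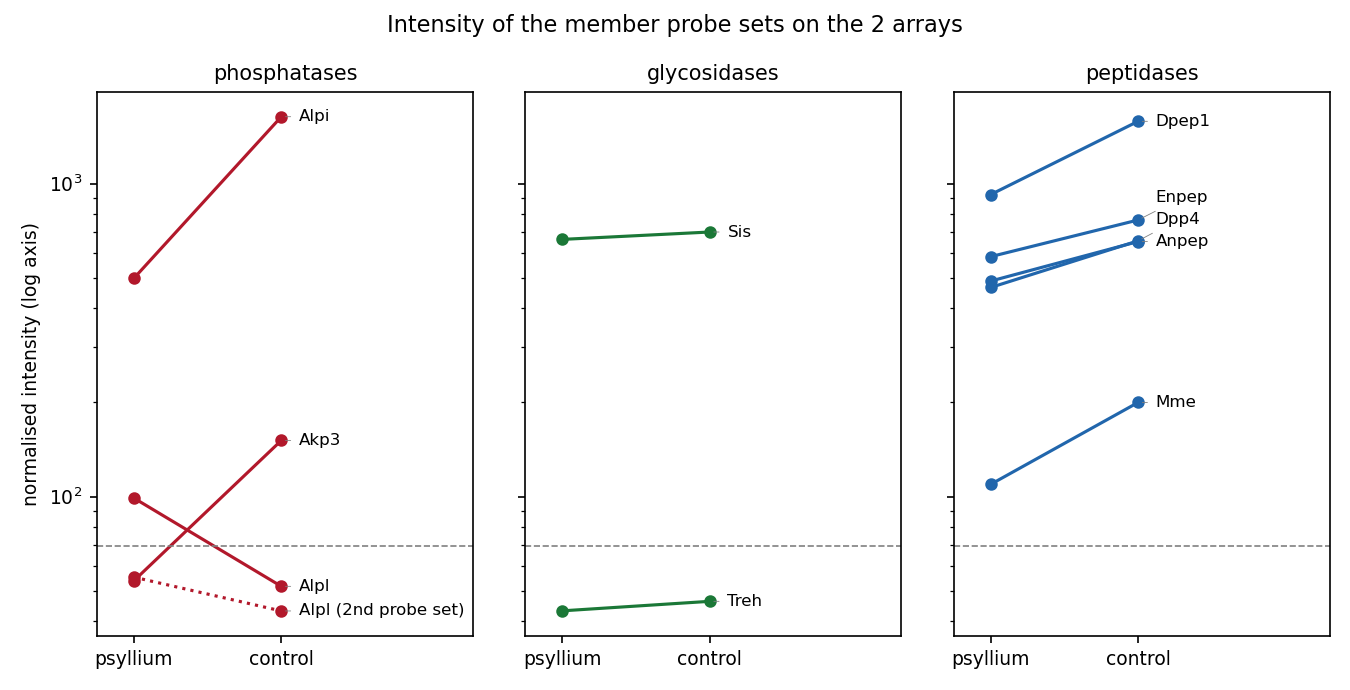
Normalised intensity (log axis) of the 11 member probe sets on the psyllium array (left) and the control array (right), 1 array each, in 3 panels by enzyme class; the dashed line is the filter's intensity of 69.5 and the dotted line the other Alpl probe set. Alpi and Akp3 slope most steeply, Sis and Treh are nearly level, and Alpl slopes the opposite way; heights of different genes are not comparable, since probes differ in brightness.

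The glycosidases were nearly equal on the 2 arrays. Sis, sucrase-isomaltase, which splits sucrose and the branch points of starch fragments, had 663 on the psyllium array and 700 on the control array, 1.06-fold lower (-0.08). Treh, trehalase, had 43.2 on the psyllium array and 46.3 on the control array (-0.10), and was the 1 member of 10 that did not pass the filter, so little can be read from it. As deposited, both differences were smaller in size than the typical gap between 2 probe sets of the same gene. That gap had a median of 0.17 on the log2 scale and a 90th percentile of 0.46 across 332 genes, and it measures probe sets on the same RNA, not animals. A direction for either gene depends on the scaling: centring the arrays on epithelial markers adds 0.26 to every gene and puts Sis at 0.18 and Treh at 0.16.

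The 5 peptidases were all lower on the psyllium array, by 1.31-fold to 1.83-fold. Mme, neprilysin, an endopeptidase that inactivates enkephalins and substance P, had 109 on the psyllium array and 200 on the control array, 1.83-fold lower (-0.87). Dpep1, a dipeptidase that also cleaves leukotriene D4, had 922 on the psyllium array and 1580 on the control array, 1.71-fold lower (-0.78). Of the genes past the filter 0.784% were as low as Mme and 1.09% as low as Dpep1.

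The other peptidases differed by less. Dpp4, which removes dipeptides from incretin hormones and other peptides, had 466 on the psyllium array and 656 on the control array, 1.41-fold lower (-0.49). Anpep, aminopeptidase N, had 488 on the psyllium array and 653 on the control array, 1.34-fold lower (-0.42). Enpep, aminopeptidase A, which trims acidic residues and acts on angiotensin II, had 584 on the psyllium array and 765 on the control array, 1.31-fold lower (-0.39). These 3 lay close together, between -0.49 and -0.39, and between 4.10% and 7.26% of genes past the filter were as low as each. Their range of 0.11 was smaller than the median gap between probe sets, so their order is not resolved.

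**Figure D2:**
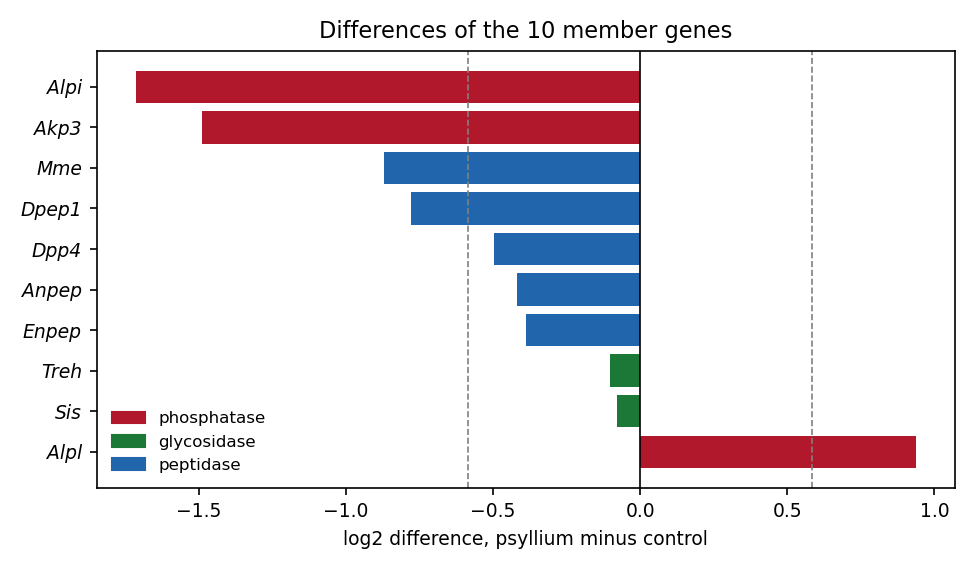
Log2 difference, psyllium minus control, of the 10 member genes (bars, coloured by enzyme class, 1 array per diet, no error available); dashed lines mark 1.5-fold. The bars run from -1.71 for Alpi to 0.94 for Alpl, with 4 genes beyond the line on the lower side and 1 beyond it on the higher side.

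By class, the median difference was -1.49 for the 3 phosphatases, -0.09 for the 2 glycosidases and -0.49 for the 5 peptidases, and -0.46 over all 10 members. The median over all genes past the filter was -0.04. At 1.5-fold, 4 members were lower (Alpi, Akp3, Mme and Dpep1) of the 9 that passed the filter, where 2.42% of genes past the filter were. Alpl was the 1 member higher at 1.5-fold, where 4.03% of genes were. At 2-fold, Alpi and Akp3 were lower, beside 0.514% of genes, and no member was higher, beside 1.06% of genes. Akp3 and Alpl passed the filter only through their brighter array. With the filter on the dimmer array, 3 of 7 members were 1.5-fold lower and none was higher. Under that filter 213 of 10229 genes were 1.5-fold lower and 339 higher. Alpi was then the 1 member 2-fold lower, and the share of all genes at 2-fold under that filter was not computed. A negative difference was found in 9 of 10 members and in 56.6% of genes past the filter. The phosphatases therefore held both the lowest and the highest member, and the peptidases varied least, from -0.87 to -0.39, apart from the near-equal pair of glycosidases.

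**Figure D3:**
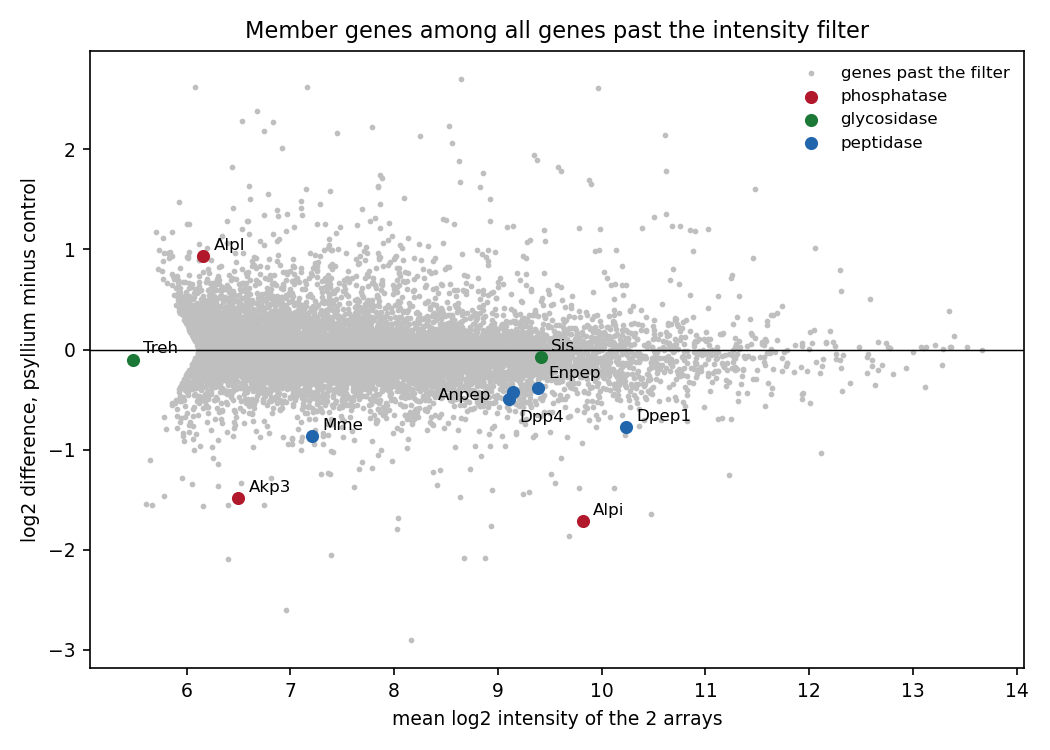
Log2 difference, psyllium minus control, against the mean log2 intensity of the 2 arrays, for the genes past the filter (grey) and the 10 members (coloured by class). Alpi lies at -1.71 and Akp3 at -1.49, below nearly all genes of like intensity, Alpl at 0.94 above most, and Sis at -0.08 within the central band.

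The way the enzyme is held in the membrane is a grouping that was added after the values were seen. The 5 with a glycosylphosphatidylinositol (GPI) anchor, namely Alpi, Akp3, Alpl, Treh and Dpep1, ranged from -1.71 to 0.94 with a median of -0.78. The 5 with a membrane-spanning segment, namely Sis, Anpep, Dpp4, Enpep and Mme, ranged from -0.87 to -0.08 with a median of -0.42. All 5 of the membrane-spanning group were negative, against 4 of 5 with a GPI anchor, and the ranges overlap.

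Other brush-border hydrolases included lower, near-equal and higher genes. Of 22 listed genes 18 were measured and 13 passed the filter, with a median over the measured genes of -0.18, from -1.22 to 0.62, and 6 of the 18 were positive. At 1.5-fold 2 of the 13 were lower and 1 was higher, beside 2.42% and 4.03% of all genes past the filter. Mep1b, meprin beta, a secreted and membrane metalloendopeptidase, had 536 on the psyllium array and 1135 on the control array, 2.12-fold lower. Nt5e (CD73), which turns AMP into adenosine, had 200.2 on the psyllium array and 130 on the control array, 1.54-fold higher. With a pseudocount of 16 it was less than 1.5-fold higher. Cubn, at 217 on the psyllium array and 508 on the control array, was 2.34-fold lower, but it and Amn form the receptor for intrinsic factor with vitamin B12 and are not hydrolases. Without these 2 genes the median was again -0.18, with 1 lower and 1 higher.

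Partner enzymes did not share 1 size of difference. Maltase-glucoamylase, Mgam, which digests starch beside sucrase-isomaltase, had 1519 on the psyllium array and 1636 on the control array (-0.11), near the value of Sis. Meprin alpha, Mep1a, had 2586 on the psyllium array and 2701 on the control array (-0.06), whereas meprin beta was at -1.08. Mgam and Mep1a were picked after their values were seen. Mgam was thus a further glycosidase near 0. Lactase, Lct, of the same list did not pass the filter and had 34.1 on the psyllium array and 44.2 on the control array (-0.38).

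Enzymes of like chemistry in other places differed little. Of 17 measured close relatives of the members 8 passed the filter, none was 1.5-fold apart, and the median was -0.13. The brightest were Dpp8, a cytosolic relative of Dpp4, with 919 on the psyllium array and 875 on the control array (0.07), and Ece1, endothelin-converting enzyme and a relative of neprilysin, with 676 on the psyllium array and 841 on the control array (-0.31). Of 21 measured phosphatases, glycosidases and peptidases of lysosome and cytosol all passed the filter and none was 1.5-fold apart, with a range from -0.33 to 0.13 and a median of -0.10. The lysosomal fucosidase Fuca1 had 961 on the psyllium array and 1040 on the control array. The lysosomal protease Ctsd had 794 on the psyllium array and 930 on the control array. Among all genes past the filter 2.42% were 1.5-fold lower and 4.03% higher. A count of none in lists this short is near those shares.

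Genes that build the microvillus were lower by a small amount. Of 20 measured, 19 had a negative difference, with a median of -0.34 from -0.97 to 0.48. The 1 gene past 1.5-fold was Mpp1, a membrane scaffold protein, with 315 on the psyllium array and 616 on the control array, 1.95-fold lower. Regulators known for brush-border genes had a median of -0.30 over 12 measured, with none of the 11 past the filter 1.5-fold apart. Hnf4a, the factor whose site letters occur before Alpi, had 1089 on the psyllium array and 1520 on the control array (-0.48), and Klf5 had 2723 on the psyllium array and 2892 on the control array (-0.09). Cdx2, read after its value was seen, had 665 on the psyllium array and 933 on the control array (-0.49). Alpi and Akp3 lay below every gene of these 2 lists. The peptidases, from -0.87 to -0.39, lay within the range of the microvillus list, which reached -0.97 only through Mpp1. Mme (-0.87) and Dpep1 (-0.78) were lower than every other microvillus gene, the next being Cdhr2 at -0.57.

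**Figure D4:**
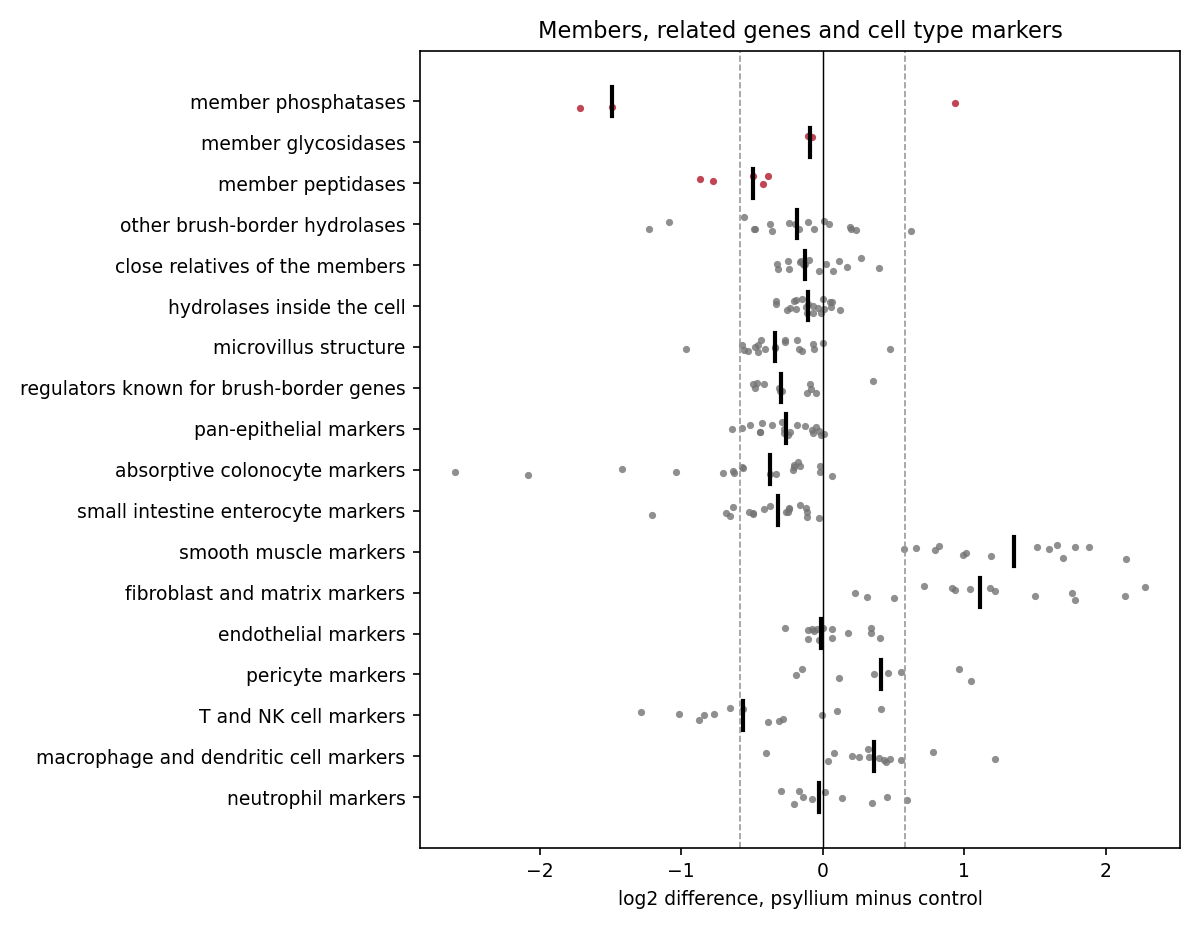
Log2 difference, psyllium minus control, of each measured gene (points) with the list's median (black bar), for the 3 member classes (red) and 15 other lists (grey); dashed lines mark 1.5-fold. Epithelial lists centre between -0.37 and -0.26, smooth muscle and fibroblast lists lie at 1.35 and 1.11, and the phosphatases span both sides.

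Several lists of cell markers also differed between the 2 arrays, some lower and some higher, and their part in these results was not tested. In bulk RNA, fewer cells of a type and less RNA per cell cannot be told apart. The summed intensities below weigh bright probe sets most, since probes differ in brightness, and are not amounts of a cell type. All 20 pan-epithelial markers were measured and past the filter on both arrays. Of these 19 were negative, with a median of -0.26, a summed intensity of 31841 on the psyllium array and 37147 on the control array, and Ovol1 (1.56-fold lower) as the 1 past 1.5-fold. Of 19 measured absorptive colonocyte markers 7 lay 1.5-fold or more below the control value and none above it. Their median was -0.37, with sums of 45826 on the psyllium array and 58744 on the control array. Within that list Aqp8 was at -2.60 and Clca4a at -2.08, both lower than Alpi, whereas Car4 was at -1.42 and Cyp2c55 at -1.03.

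Small-intestinal enterocyte markers bear on members that are best known from that part of the gut. All 18 were negative, 13 passed the filter and 3 of those 13 were 1.5-fold lower. The median was -0.32, with sums of 11888 on the psyllium array and 15316 on the control array. Reg3b alone had 5539 on the psyllium array and 6516 on the control array. Apoa4, an apolipoprotein of fat absorption, was 2.31-fold lower, the fatty acid binding protein Fabp2 1.61-fold and the peptide transporter Slc15a1 1.55-fold. The dimmest was Cyp3a11, whose higher value was 29.4. It did not pass the filter, and neither did Fabp1, Slc2a2, Slc2a5 and Lct.

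Stromal, vascular and immune markers are given because Alpl, Enpep, Anpep, Dpp4 and Mme can also be made outside the epithelium. Smooth muscle markers had a median of 1.35, with 13 of 14 at least 1.5-fold higher and sums of 33041 on the psyllium array and 13790 on the control array. Fibroblast and matrix markers had one of 1.11 over 14, with 10 of the 13 past the filter at least 1.5-fold higher. The list's sums were 11525 on the psyllium array and 4967 on the control array. Actg2 (4.42-fold higher) and Lum (4.40-fold) were examples from these 2 lists. Pericyte markers had a median of 0.41 over 8, with 2 of the 5 past the filter higher, Cspg4 (2.07-fold) and Kcnj8 (1.95-fold). The pericyte sums were 4948 on the psyllium array and 3766 on the control array. Rgs5 alone had 3746 on the psyllium array and 2910 on the control array.

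None of 14 endothelial markers was 1.5-fold apart, and their median was -0.01, with sums of 1836 on the psyllium array and 1712 on the control array. T and NK cell markers, beside Dpp4 (CD26), had a median of -0.57 over 13 measured, of which 2 were positive. That median is the value of Gzmb, dim at 30.3 on the psyllium array and 44.9 on the control array. Only 4 of the 13 reached 69.5 on both arrays. Of the 7 past the filter 4 were 1.5-fold lower, among them Cd3e (2.43-fold). The T and NK cell sums were 706 on the psyllium array and 1068 on the control array. Macrophage and dendritic cell markers, beside Anpep (CD13), had a median of 0.37 over 14. Of the 12 past the filter 2 were higher, Mrc1 (2.33-fold) and Cd163 (1.71-fold). The macrophage list had sums of 2147 on the psyllium array and 1586 on the control array. Of 10 neutrophil markers, given beside Alpl, only Ly6g passed the filter (1.51-fold higher), and the list median was -0.03. The neutrophil gene S100a8 had 9.24 on the psyllium array and 10.2 on the control array, the dimmest of the list. The sums of the list were 427 on the psyllium array and 379 on the control array.

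With the arrays centred on the pan-epithelial median, a scaling chosen after the data were seen that adds 0.26 to every difference, Alpi stood at -1.45, Akp3 at -1.23, Mme at -0.61 and Dpep1 at -0.52. The difference of Dpep1 was then less than 1.5-fold. On the same scale Dpp4 was at -0.24, Anpep at -0.16 and Enpep at -0.13, so those 3 peptidases differed from the epithelial median by little: the values of Anpep and Enpep were below the median gap between probe sets of a gene, and that of Dpp4 above it. Alpl stood at 1.20.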

How the data were processed

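Colon RNA, on 1 array per diet, was labelled with biotin with a whole-transcript kit and hybridised, per the labels' protocols. The deposited values are normalised intensities, 1 for each probe set, and are not on a log scale. The submitters' processing notes name RMA and Affymetrix Expression Console; versions, annotation and how the arrays were scaled to each other are not given in the sources used here. The fixed plan allowed for linear or log values; the deposited intensities were converted to log2 with no pseudocount, and differences are psyllium minus control.

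Gene names came from the platform annotation held by GEO, updated by gene number through RefSeq (GRCm38.p6), which held 23328 of the 23521 probe sets with 1 gene. A further 1814 named several genes and 16010 named none here. A gene's value is its brighter probe set by mean log2. Genes count at 1.5-fold or 2-fold if the higher value reached 69.5. Intensities ran from 1.76 to 13841 (psyllium) and from 1.92 to 13675 (control). The number of arrays limits the precision, and no test was possible. All members were named; from each other list, up to 4 genes at least 1.5-fold apart with the largest differences, or otherwise the 2 brightest. Smaller selections of these are printed for the marker lists. The members and lists were chosen with earlier results of these data known. Of 250 list entries besides the members, 232 were measured. The counting procedure was tested on simulated data, with changes put only into bright probe sets and scored at 2-fold. That test did not cover the 1.5-fold counts or members as dim as Akp3, Alpl and Mme. Alternatives were median centring, quantile normalisation, a loess trend (span 0.3), a pseudocount of 16, the mean of probe sets, no filter, a filter on the lower value and, added after the data were seen, centring on pan-epithelial markers. Promoters were aligned with Biopython 1.88 (match 1, mismatch -1, gap opening -3, extension -0.5), and values were computed in Python 3.11.15 with statsmodels 0.14.6.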

Additional observations from a re-analysis of the deposited data

How the results depend on the processing

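Each value was recomputed under 8 alternatives, taking as its spread the median gap of 0.17 between probe sets of a gene, since there are no replicate arrays to leave out. The 2 filter alternatives cannot change a gene's own difference, and the mean of probe sets can change only that of Alpl. Under the 5 alternatives that could alter them, Alpi (-1.74 to -1.45), Akp3 (-1.51 to -1.23) and Mme (-0.89 to -0.61) kept their direction and stayed past 1.5-fold, as did Alpl (0.65 to 1.20) under 6. Dpep1 (-0.80 to -0.52) kept its direction under 5 and its size under 4. Centring on pan-epithelial markers adds 0.26 to every gene, so Sis and Treh turned positive by construction. With a pseudocount of 16 the phosphatase median was -1.26. With the filter on the lower value 3 members were 1.5-fold apart and 1 was 2-fold apart, against 5 and 2. The reason is that Akp3 and Alpl each had an array below 69.5. That filter left 10229 genes, of which 213 were 1.5-fold lower and 339 higher, and the share at 2-fold was not computed. Centring on pan-epithelial markers gave medians of -0.20 for the 10 members, -1.23 for phosphatases, 0.17 for glycosidases and -0.24 for peptidases. Under that scaling 1159 genes were higher and 94 lower at 1.5-fold, against 447 higher and 268 lower as deposited. Of 56 recomputed medians and counts 49 stayed within the spread or within 1.5 times the count. That total is no measure of stability, because some of these values could not move. The 2 filter alternatives cannot change a median, and the mean of probe sets left every median as it was. The rule for counts also let pass a change from 2 to 3 members at 2-fold, seen with pan-epithelial centring. The share of all genes at 2-fold under that scaling was not computed, so the count of 3 cannot be set against it. No paired analysis was possible because each diet has 1 array. The call of Nt5e as 1.5-fold higher was lost with a pseudocount of 16. Members dim on 1 array (Akp3 on psyllium, Alpl on control) have uncertain folds.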
